A study of Mus musculus with 26 samples.

Results

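Glucocorticoid-responsive genes and metallothioneins were followed by RNA sequencing in the brown fat of mice, a depot that burns fuel to make heat. The set held 10 genes, chosen by symbol from the 48432 gene rows of the deposited table, and all 10 passed the filter on low values. They were the receptor gene Nr3c1, the hormone-activating enzyme Hsd11b1, the receptor targets Fkbp5, Tsc22d3, Zbtb16, Sgk1 and Cdkn1a, the sulfotransferase Sult1a1 and the metallothioneins Mt1 and Mt2. BKO mice carried floxed Klf15 alleles with the Ucp1-Cre transgene (Ucp1-Cre/+;K15F/F), and FF mice carried KLF15 flox/flox alleles. All mice were 2 months old. Each genotype was studied in cold plus fasting (3 libraries), in a cold challenge (4 libraries), fasted at room temperature (3 libraries) and fed at room temperature (3 libraries), which made 26 libraries, 13 per genotype. The labels give no feeding state for the cold challenge. Klf15, which encodes a Kruppel-like transcription factor, lay between 2.12 and 8.92 FPKM in BKO libraries and between 9.04 and 30.6 FPKM in FF libraries, where FPKM are fragment counts scaled to transcript length and to the total of mapped fragments. Cre under the Ucp1 promoter acts in brown adipocytes, so the other cells of the depot keep the floxed alleles, and no group carried Cre without them.

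Glucocorticoids are adrenal steroids, and corticosterone is the main one in mice. Hsd11b1 regenerates the active hormone from its inert keto form inside cells. The hormone binds the receptor encoded by Nr3c1, which is held by heat shock proteins and immunophilins in the cytosol and then moves to the nucleus, where it can bind a palindromic DNA element. Fkbp5, Tsc22d3, Zbtb16, Sgk1 and Cdkn1a are widely used readouts of the receptor. Mt1 and Mt2 encode small cysteine-rich proteins that bind zinc and copper, and both genes are induced by metals through the zinc-sensing factor Mtf1 and by glucocorticoids. Plasma corticosterone is known to rise in fasted mice. No hormone or metal level was used here.

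RefSeq start windows, which run from 250 bases before to 50 bases after an annotated start on GRCm38.p6, were found for 8 of the 10 genes. The 4 shown were picked as windows that hold a match to a letter pattern searched for. The metallothionein windows carry matches to the core of the metal response element, searched on both strands as TGCACNC or TGCGCNC and given in capitals. Mt2 held 4 matches and Mt1 held 3, while 25.7% of all 32851 windows held at least 1, 1.97% at least 3 and 0.517% at least 4. The Sgk1 window carries, in capitals, the receptor palindrome of the letters AGAACA and TGTTCT with 3 bases between them, which 0.00913% of all windows held, and it is 1 of 6 Sgk1 windows. No window of Fkbp5, Tsc22d3, Cdkn1a, Sult1a1, Hsd11b1, Mt1 or Mt2 held this palindrome. The Hsd11b1 window carries CACCC, the core letters that Kruppel-like factors bind, in capitals, as did 57.5% of all windows on either strand. Other genes of the set also held CACCC, up to 3 per window in Cdkn1a and Mt2, up to 2 in Tsc22d3 and up to 1 in Mt1 and Sgk1. The Hsd11b1 window also held 1 match to the metal response element core, left in small letters. A match is only a match of letters. The windows, written 5′ to 3′ on the gene's strand, are Mt2 at chr8:94172368-94172667 (plus strand), Mt1 at chr8:94178839-94179138 (plus strand), Sgk1 at chr10:21993640-21993939 (plus strand) and Hsd11b1 at chr1:193242311-193242610 (minus strand).
Mt2: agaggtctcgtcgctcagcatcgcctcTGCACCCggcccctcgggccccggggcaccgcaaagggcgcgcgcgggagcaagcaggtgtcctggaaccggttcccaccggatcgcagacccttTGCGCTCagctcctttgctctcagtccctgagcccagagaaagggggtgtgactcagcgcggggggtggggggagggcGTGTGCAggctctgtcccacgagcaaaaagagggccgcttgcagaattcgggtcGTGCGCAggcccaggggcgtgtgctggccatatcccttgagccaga
Mt1: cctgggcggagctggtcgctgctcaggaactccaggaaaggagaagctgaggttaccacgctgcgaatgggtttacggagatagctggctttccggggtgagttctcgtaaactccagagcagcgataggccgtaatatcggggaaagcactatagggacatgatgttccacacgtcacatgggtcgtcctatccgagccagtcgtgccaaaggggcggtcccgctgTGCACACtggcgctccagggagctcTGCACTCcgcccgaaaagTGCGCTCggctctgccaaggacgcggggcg
Sgk1: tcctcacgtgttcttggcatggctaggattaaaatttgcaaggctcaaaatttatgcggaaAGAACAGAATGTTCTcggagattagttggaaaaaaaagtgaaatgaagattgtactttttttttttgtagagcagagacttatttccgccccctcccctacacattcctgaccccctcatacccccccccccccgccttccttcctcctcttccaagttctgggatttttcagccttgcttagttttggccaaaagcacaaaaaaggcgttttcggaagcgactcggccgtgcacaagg
Hsd11b1: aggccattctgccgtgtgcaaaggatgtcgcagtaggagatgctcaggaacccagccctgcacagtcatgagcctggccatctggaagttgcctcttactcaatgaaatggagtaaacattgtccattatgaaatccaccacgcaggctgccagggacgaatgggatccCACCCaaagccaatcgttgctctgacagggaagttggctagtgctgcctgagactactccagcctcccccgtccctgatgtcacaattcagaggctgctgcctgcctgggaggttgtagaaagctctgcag

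The libraries summed to 388107 to 501068 FPKM each, and 11345 to 11868 genes per library reached 1 FPKM. Read counts were not used, so absolute depth is unknown, and the spacing of the lowest values put the relative depth of the libraries between 0.774 and 1.24 times that of the median library. Summed brown adipocyte markers, 10 genes, ranged from 7593 to 19180 FPKM, although Ucp1 itself was listed at 0 in every library of the cold challenge and was treated there as a failed estimate. Adrenal and liver markers, 6 genes of which 2 were at 0 throughout, summed to 0.249 to 1.26 FPKM. The library numbers in the labels fall into 2 sets, CB1 to CB8 (8 libraries) and CB15 to CB32 (18 libraries). All BKO libraries and all FF libraries of cold plus fasting were in the higher-numbered set. All fasted FF libraries, fed FF replicates 1 and 2 and cold FF replicates 2, 3 and 4 were in the lower-numbered set, so in fasted mice genotype and library number cannot be told apart. In whole tissue, fewer cells of a type and less RNA per cell cannot be told apart either.

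Fasting at room temperature was the condition in which most of these genes stood high, in both genotypes. With limma on log2(FPKM + 1) and a threshold of 0.05 on the p-value adjusted over all genes tested, 5 of 10 rose and 0 fell in fasted against fed BKO mice, where 12.9% of all 12705 genes tested rose and 14.6% fell. In fasted against fed FF mice 7 of 10 rose and 0 fell, where 18.1% of all genes tested rose and 19.4% fell. The median difference of the 10 genes was 0.992 in BKO mice and 1.395 in FF mice on the log2 scale, beside medians of -0.01 and 0 over all genes tested. As the 10 genes were chosen with earlier results of these data known, these counts and medians only describe them. In the test of the difference between the fasting responses of BKO and FF mice, 0 of 10 genes passed the threshold, while 0.299% of all genes passed it with a higher and 0.417% with a lower response in BKO mice. With cold and fasting combined, the means of most of these genes stood closer to those in cold alone than to those in fasting alone. Against fasting at room temperature, cold plus fasting gave 0 that rose and 7 that fell of 10 in BKO mice, where 22.9% of all genes rose and 22.2% fell, and 1 that rose and 8 that fell in FF mice, where 26% rose and 25.9% fell. This comparison was added after the data had been seen. In FF mice its fasted libraries were all in the lower-numbered set and its cold plus fasting libraries all in the higher-numbered set. Condition and library number therefore cannot be told apart between these FF groups. In cold plus fasting against cold, 0 of 10 passed the threshold in either genotype, while 0% of all genes rose and 0.00787% fell in BKO mice and 0% rose and 0% fell in FF mice by limma. There 1110 genes in BKO mice and 377 in FF mice had an unadjusted p under 0.05. With almost no gene called in all, that count does not show equal levels. The libraries did not overlap for Cdkn1a (0.56 in BKO and 0.41 in FF mice), Hsd11b1 in BKO mice (0.47) and Fkbp5 in FF mice (0.375). Each of these was higher in cold plus fasting than in cold, but none passed the threshold. In BKO mice the adjusted p was 0.413 for Cdkn1a and 0.402 for Hsd11b1. The share of all genes whose libraries did not overlap there was not counted, so these separations only describe the values.

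Some markers of other cells also differed between fasted and fed mice, where 12.9% of all genes rose and 14.6% fell in BKO and 18.1% rose and 19.4% fell in FF mice. Summed white adipocyte markers, 8 genes found of 9, stood at 20.4 to 31.04 FPKM in fasted BKO and 25.4 to 38.4 FPKM in fasted FF libraries, against 45.6 to 82.3 FPKM in fed BKO and 48.0 to 53.6 FPKM in fed FF libraries. Of the 6 tested, 0 rose and 3 fell in BKO and 1 rose and 2 fell in FF mice. Of 7 fibroblast and preadipocyte markers tested, 1 rose and 3 fell in each genotype. Of 8 endothelial markers, 2 rose and 1 fell in BKO and 3 rose and 1 fell in FF mice. Of 6 macrophage markers tested, 0 rose and 3 fell in BKO and 0 rose and 0 fell in FF mice. Of 4 Schwann cell markers tested, 0 rose and 2 fell in BKO and 0 rose and 1 fell in FF mice. The part of other cells in the fasting results was not tested.

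**Figure D1:**
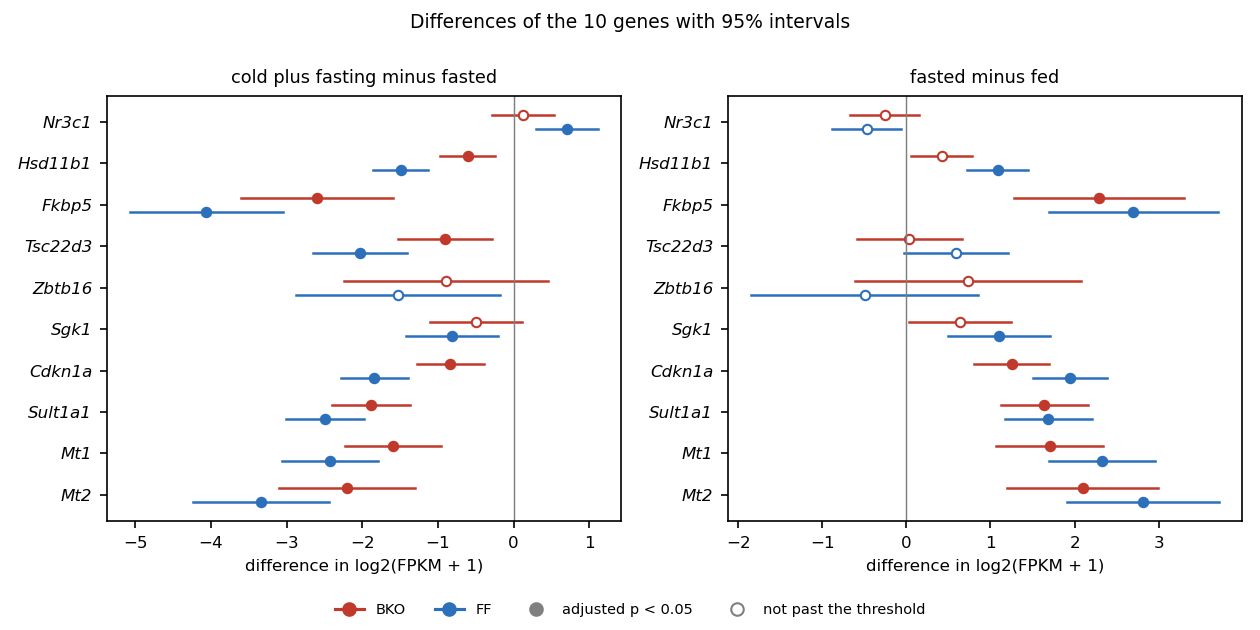
Differences of the 10 genes in log2(FPKM + 1) with 95% intervals, cold plus fasting minus fasted on the left and fasted minus fed on the right, BKO above FF in each row. Filled points passed the threshold of 0.05 on the adjusted p. The metallothioneins, Sult1a1, Cdkn1a and Fkbp5 lie to the right of 0 in the fasted panel and to the left in the other, in both genotypes, with Mt2 at 2.10 in fasted BKO and 2.81 in fasted FF mice.

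Nr3c1, which encodes the glucocorticoid receptor (chr18:39410545-39519421, minus strand, GENCODE M21), varied least of the 10 genes, between 10.2 and 29.1 FPKM over all 26 libraries. In fasted mice it stood at 15.8, 24.3 and 19.8 FPKM in BKO and at 15.96, 18.5 and 10.2 FPKM in FF libraries, against 22.9, 25.1 and 23.4 FPKM in fed BKO and 22.8, 19.8 and 18.9 FPKM in fed FF libraries. Fasted and fed libraries overlapped in BKO mice and did not in FF mice, and neither difference passed the threshold (-0.26, SE 0.20, adjusted p = 0.353 in BKO and -0.47, SE 0.20, adjusted p = 0.0648 in FF mice). In FF mice, cold plus fasting, at 23.1, 27.8 and 22.1 FPKM, lay above fasting alone in every library, and Nr3c1 rose by 0.70 on the log2 scale (SE 0.20, adjusted p = 0.00502). Without FF fasted replicate 3 the difference was 0.47 and the call ended (adjusted p = 0.0542). With library number as a covariate, entered as the set CB1 to CB8 or CB15 to CB32, the call also ended (adjusted p = 0.0598) at a difference of 0.74. Between genotypes Nr3c1 differed by 0.12 on the log2 scale on average over the 4 conditions (95% interval -0.08 to 0.32, adjusted p = 0.548).

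Hsd11b1 (chr1:193221634-193264075, minus strand), the enzyme that regenerates active hormone, was the gene of the set that differed most clearly between genotypes. It fell in BKO against FF mice by 0.85 on the log2 scale on average over the 4 conditions (SE 0.09, adjusted p = 4.07e-07), where 1.26% of all 12702 genes tested rose and 1.71% fell, and it was the only member of the 10 to pass the threshold there. The call was kept under each of 5 other settings and without each of the 26 libraries in turn, with differences between -0.91 and -0.79. Fasted libraries stood at 136, 106 and 106 FPKM in BKO mice, against 378, 274 and 271 FPKM in FF mice. The genotypes did not overlap there, and Hsd11b1 fell by 1.39 on the log2 scale (SE 0.17, adjusted p = 2.11e-05), where 4.53% of all genes rose and 4.15% fell. In cold the values were 55.2, 56.0, 52.0 and 53.6 FPKM in BKO mice, against 86.3, 96.6, 83.9 and 106 FPKM in FF mice. They did not overlap either, with a fall of 0.76 on the log2 scale (SE 0.15, adjusted p = 0.0159, where 0.0236% of all genes rose and 0.378% fell). Fed BKO libraries had 103, 78.5 and 77.9 FPKM, against 130.4, 145 and 153 FPKM in fed FF libraries. These did not overlap, yet the difference of -0.72 (SE 0.17) had an adjusted p of 0.123, and 0.0394% of all genes rose and 0.181% fell in that comparison. Under cold plus fasting, BKO libraries had 67.3, 80.4 and 79.4 FPKM and FF libraries 106, 153 and 77.3 FPKM, which overlapped (-0.51, SE 0.17, adjusted p = 0.683, where 0.0157% of all genes rose and 0.22% fell). Among libraries CB15 to CB32 alone the difference was -0.83 in fed mice and -0.66 in cold, each against a single FF library taken to vary like the other groups, and -0.51 in cold plus fasting. None of these 3 passed the threshold, and the call in cold was also lost when BKO replicate 1, 3 or 4 or FF replicate 2 or 4 was left out, at differences between -0.77 and -0.70. With library number as a covariate the difference in cold was -0.77, with an adjusted p of 0.397.

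Across conditions Hsd11b1 rose in fasted against fed FF mice by 1.09 on the log2 scale (SE 0.17, adjusted p = 4.5e-05), while the difference in BKO mice was 0.42 (SE 0.17, adjusted p = 0.079). The 2 responses differed by -0.67 (95% interval -1.18 to -0.15, adjusted p = 0.245). In cold against fed it fell in both genotypes, by 0.65 in BKO mice (SE 0.16, adjusted p = 0.008) and by 0.61 in FF mice (SE 0.16, adjusted p = 0.00911). The BKO call ended without fed replicate 1, at an adjusted p of 0.0614. The FF call ended among libraries CB15 to CB32 alone (-0.82, adjusted p = 0.307) and among CB1 to CB8 alone (-0.53, adjusted p = 0.0644). Between cold plus fasting and fasting it fell by 0.60 in BKO mice (SE 0.17, adjusted p = 0.00763) and fell by 1.49 in FF mice (SE 0.17, adjusted p = 4.39e-07). The order of group means ran from fasted FF at 308 ± 60.4 FPKM to cold BKO at 54.2 ± 1.80 FPKM (SD, n = 3 and 4), and each of these stood clear of its neighbour, while the 6 groups between them overlapped along the order. Lamb3, on the opposite strand, overlaps Hsd11b1 in the annotation and lay between 0.704 and 2.23 FPKM, and whether the counting used strand is not given in the sources used here.

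**Figure D2:**
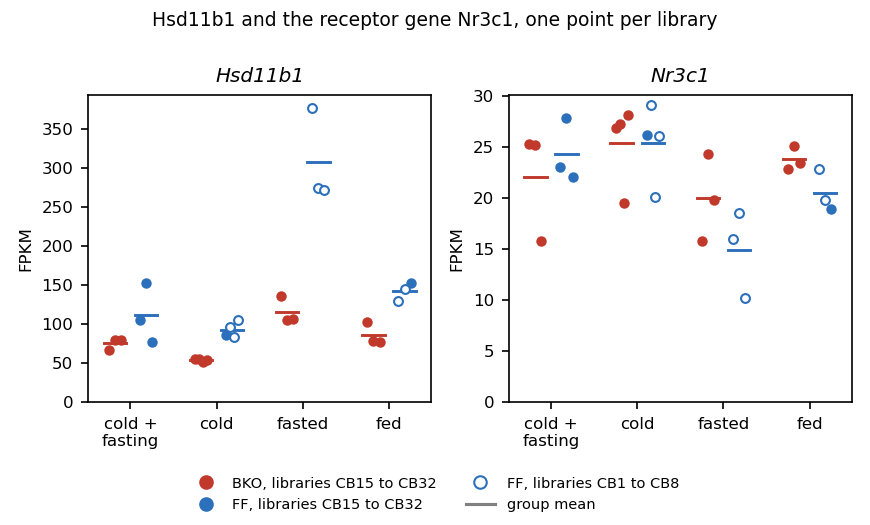
FPKM of Hsd11b1 and Nr3c1 in every library, by condition, with BKO left of FF and group means as bars. Open points are libraries CB1 to CB8. The BKO points of Hsd11b1 lie below all FF points in cold, in fasted and in fed mice, while those of Nr3c1 overlap with FF in 3 of the 4 conditions.

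Fkbp5 encodes an immunophilin that binds the receptor complex and lowers its affinity for the hormone (chr17:28399094-28517527, minus strand). It had the widest range of the set, between 1.05 and 89.6 FPKM. Fasted BKO libraries stood at 19.4, 13.3 and 10.5 FPKM, against 1.89, 1.47 and 3.00 FPKM in fed BKO libraries. The groups were apart, and Fkbp5 rose by 2.29 on the log2 scale (SE 0.49, adjusted p = 0.00117). Fasted FF libraries stood at 69.1, 16.04 and 89.6 FPKM, against 8.10, 15.2 and 1.67 FPKM in fed FF libraries. Replicate 2 of the fasted group lay just above the highest fed library, and the rise was 2.70 (SE 0.49, adjusted p = 0.000156). The FF call ended only in the fit of these 2 groups alone, at an adjusted p of 0.052. The rise was 1.97 without fed replicate 3 and 3.44 without fasted replicate 2. In cold plus fasting Fkbp5 stood at 1.05 to 2.02 FPKM in BKO and at 1.55 to 2.04 FPKM in FF libraries, and it fell against fasting by 2.60 in BKO mice (SE 0.49, adjusted p = 0.000178) and fell by 4.06 in FF mice (SE 0.49, adjusted p = 5.44e-07), or -4.80 without FF fasted replicate 2. In cold against fed FF mice it fell by 1.74 (SE 0.46, adjusted p = 0.00815), with 1.09 to 1.37 FPKM in cold, and the call ended without fed replicate 2 (-1.16, adjusted p = 0.0939) and among libraries CB15 to CB32 alone (-0.27, adjusted p = 0.872). Without fed replicate 3 the difference was -2.46. In fasted mice it fell in BKO against FF by 1.67 (SE 0.49, adjusted p = 0.0338), but the libraries overlapped. Leaving out BKO replicate 2 or 3, or FF replicate 1 or 3, ended that call. It also ended with 0.1 in place of 1 added to the FPKM (adjusted p = 0.0561) and with no filter on low values (adjusted p = 0.072). The fit of these 2 groups alone ended it too (adjusted p = 0.227). With library number, entered as the set, as a covariate the difference was -0.65, with an adjusted p of 0.73. In fasted mice the sets coincide with genotype, so that adjustment rests on the fed and cold FF groups. Without FF replicate 2 the difference was -2.41, with an adjusted p of 0.000763.

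Tsc22d3 encodes a leucine zipper protein that mediates anti-inflammatory effects of the hormone (chrX:140539528-140600659, minus strand). Like Fkbp5 it was lowest in the groups exposed to cold, but its difference between fasted and fed mice did not pass the threshold (0.04, SE 0.30, adjusted p = 0.948 in BKO and 0.59, SE 0.30, adjusted p = 0.129 in FF mice). Cold libraries stood at 11.9, 13.5, 16.8 and 16.4 FPKM in BKO mice, against 21.9, 24.6 and 52.9 FPKM in fed BKO mice. The groups did not overlap, and Tsc22d3 fell by 1.03 on the log2 scale (SE 0.28, adjusted p = 0.0143), where 9.71% of all genes rose and 6.49% fell. The call ended without BKO fed replicate 3, the library at 52.9 FPKM, where the difference was -0.64 with an adjusted p of 0.133. Cold FF libraries stood at 12.5, 12.1, 12.1 and 9.27 FPKM, against 44.8, 52.9 and 21.8 FPKM in fed FF mice, a fall of 1.62 (SE 0.28, adjusted p = 0.000238, where 13.3% of all genes rose and 10.3% fell). Among libraries CB15 to CB32 alone, with 1 library per FF group, the difference was -0.75 with an adjusted p of 0.654, and among CB1 to CB8 alone it was -2.04 with an adjusted p of 0.000144. Fasted libraries had 22.7, 35.1 and 38.8 FPKM in BKO mice and 57.0, 53.1 and 59.8 FPKM in FF mice. The genotypes did not overlap, and the difference of -0.83 (SE 0.30) had an adjusted p of 0.088. Against fasting, cold plus fasting fell by 0.91 in BKO mice (SE 0.30, adjusted p = 0.017) and fell by 2.03 in FF mice (SE 0.30, adjusted p = 8.19e-06). The BKO call ended without cold plus fasting replicate 1 or fasted replicate 2 or 3, with adjusted p up to 0.108.

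Zbtb16 encodes a zinc finger transcription factor that glucocorticoids induce in many cells (chr9:48654297-48836222, minus strand). Its high values lay in a few FF libraries, all of them in the set CB1 to CB8, which held no BKO library. FF libraries of CB15 to CB32 reached at most 4.43 FPKM. Every BKO library of any condition lay between 1.45 and 7.34 FPKM, while fasted FF libraries stood at 42.1, 3.57 and 9.99 FPKM and fed FF libraries at 28.8, 40.2 and 3.96 FPKM. In cold against fed FF mice it fell by 2.20 on the log2 scale (SE 0.61, adjusted p = 0.0116), with cold values of 2.75, 3.38, 2.67 and 3.17 FPKM. This call ended without fed replicate 1 (-1.84, adjusted p = 0.0774) or 2 (-1.61, adjusted p = 0.105), and without fed replicate 3 the difference was -3.14. Among libraries CB15 to CB32, with 1 fed and 1 cold FF library, it was -0.40. In fed mice the genotypes differed by -1.97 (SE 0.65, adjusted p = 0.531), and the adjusted p was 0.0174 without FF fed replicate 3. Among CB15 to CB32 alone that difference was -0.09.

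Fed FF replicates 1 and 2, the libraries CB7 and CB8, stood apart from replicate 3 in 4 of these genes. They had 8.10 and 15.2 FPKM of Fkbp5 against 1.67 in replicate 3, 44.8 and 52.9 FPKM of Tsc22d3 against 21.8, and 28.8 and 40.2 FPKM of Zbtb16 against 3.96, but only 14.5 and 14.03 FPKM of Sgk1 against 42.3 FPKM. Of other genes, whose values were seen before they were chosen, Angptl4 had 153 and 214 FPKM there against 71.8 FPKM in replicate 3, and Ucp1 had 2647 and 2687 against 4486 FPKM. Per1, a clock gene that the receptor also induces, had 15.4 and 14.7 against 15.1 FPKM. In fed BKO mice, all of them in libraries CB15 to CB32, replicate 3 held the highest values of Fkbp5, Tsc22d3, Zbtb16, Cdkn1a, Sult1a1 and Mt1. It also held the highest Sgk1, at 34.2 FPKM beside 31.7 and 32.5 FPKM. What sets these libraries apart was not tested.

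**Figure D3:**
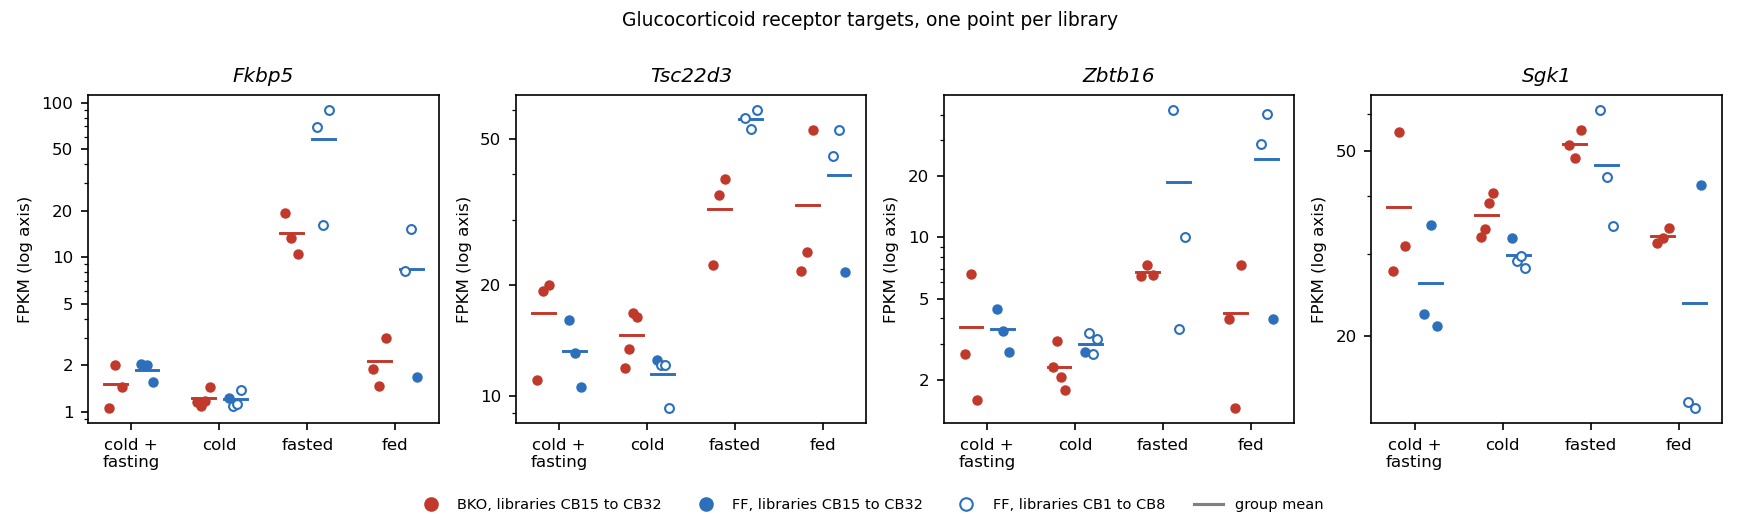
FPKM of Fkbp5, Tsc22d3, Zbtb16 and Sgk1 in every library on log axes, by condition, with BKO left of FF, group means as bars and open points for libraries CB1 to CB8. In the fed FF group the open points lie above the filled one for Fkbp5, Tsc22d3 and Zbtb16 and below it for Sgk1.

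Sgk1 encodes a serine/threonine kinase that acts on ion channels and transporters (chr10:21882184-21999903, plus strand). In fasted mice it stood at 51.3, 48.2 and 55.3 FPKM in BKO and at 61.2, 43.9 and 34.6 FPKM in FF libraries, against 31.7, 32.5 and 34.2 FPKM in fed BKO and 14.5, 14.03 and 42.3 FPKM in fed FF libraries. Fasted and fed libraries were apart in BKO mice and overlapped in FF mice. Sgk1 rose in FF mice by 1.10 on the log2 scale (SE 0.29, adjusted p = 0.00516), and the difference in BKO mice was 0.64 (SE 0.29, adjusted p = 0.111). The FF call ended in the fit of these groups alone (adjusted p = 0.102), while among libraries CB1 to CB8 the rise was 1.60 with an adjusted p of 0.0014, and in BKO mice the adjusted p was 0.0341 among libraries CB15 to CB32. In cold plus fasting against fasted it fell in FF mice by 0.81 (SE 0.29, adjusted p = 0.0242), a call that ended with no filter on low values and without cold plus fasting replicate 1 or 3 or fasted replicate 1, with adjusted p up to 0.129. The values in FF mice there were 22.3, 34.7 and 21.1 FPKM, against the fasted values above, and the highest of them just passed the lowest fasted library.

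Cdkn1a encodes the cyclin-dependent kinase inhibitor p21, which p53 induces as well as the receptor (chr17:29090976-29100727, plus strand). Fasted libraries stood at 205, 186 and 204 FPKM in BKO mice, against 66.0, 65.7 and 130.0 FPKM in fed BKO mice. In FF mice the fasted libraries stood at 339.7, 254 and 381 FPKM, against 82.7, 105 and 63.9 FPKM in fed libraries. The conditions did not overlap in either genotype, and Cdkn1a rose by 1.25 on the log2 scale in BKO (SE 0.21, adjusted p = 0.00013) and by 1.95 in FF mice (SE 0.21, adjusted p = 3.74e-07). Every fasted BKO library lay below every fasted FF library, a fall of 0.69 (SE 0.21, adjusted p = 0.0454), but the call ended without any 1 of 5 of the 6 libraries, with differences between -0.71 and -0.56. With library number as a covariate it also ended, at a difference of -0.56 (adjusted p = 0.454). The 2 fasting responses differed by -0.70 (95% interval -1.32 to -0.07, adjusted p = 0.341). Cdkn1a values under cold plus fasting were 85.4, 131 and 121 FPKM in BKO and 98.6, 88.7 and 80.0 FPKM in FF mice, and Cdkn1a fell against fasting by 0.83 in BKO (SE 0.21, adjusted p = 0.00299) and fell by 1.84 in FF mice (SE 0.21, adjusted p = 3.43e-07).

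Sult1a1 encodes a cytosolic sulfotransferase that conjugates phenols (chr7:126672865-126676432, minus strand). Fasted BKO libraries stood at 77.4, 51.8 and 73.7 FPKM, against 18.8, 17.8 and 26.5 FPKM in fed BKO libraries. Fasted FF libraries stood at 95.2, 77.1 and 105 FPKM, against 28.1, 37.8 and 19.9 FPKM in fed FF libraries. The groups were apart in both genotypes, and the rise was nearly equal, 1.64 on the log2 scale in BKO (SE 0.25, adjusted p = 3.47e-05) and 1.69 in FF mice (SE 0.25, adjusted p = 1.61e-05). The responses differed by -0.05, with a 95% interval of -0.78 to 0.68. Libraries of cold plus fasting had 11.7, 23.2 and 18.9 FPKM in BKO and 15.2, 20.9 and 11.7 FPKM in FF mice, and Sult1a1 fell against fasting by 1.89 in BKO (SE 0.25, adjusted p = 2.84e-06) and fell by 2.49 in FF mice (SE 0.25, adjusted p = 4.38e-08). In cold alone it had 10.8, 13.7, 12.9 and 17.1 FPKM in BKO and 12.5, 15.02, 12.8 and 10.3 FPKM in FF mice. It fell there against fed FF mice by 1.08 (SE 0.23, adjusted p = 0.00177), while in BKO mice the difference was -0.58 (SE 0.23, adjusted p = 0.0893). The FF call in cold was lost among libraries CB15 to CB32 alone (adjusted p = 0.658) and kept among CB1 to CB8 alone (adjusted p = 0.00445). Sgf29, which overlaps on the opposite strand, lay between 5.98 and 10.9 FPKM in all libraries.

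Mt1 and Mt2 lie 5513 bases apart on chromosome 8, Mt2 at 94172664 to 94173568 and Mt1 at 94179082 to 94180327, both on the plus strand. They were the highest of the set in fasted mice. Fasted BKO libraries had 2443, 888 and 1111 FPKM of Mt1, against 385, 396 and 455 FPKM in fed BKO libraries. Fasted FF libraries had 1934, 1847 and 2672 FPKM of Mt1, against 386, 432 and 450.4 FPKM in fed FF libraries. No fasted library overlapped a fed one. Mt1 rose by 1.70 on the log2 scale in BKO (SE 0.31, adjusted p = 0.000234) and by 2.33 in FF mice (SE 0.31, adjusted p = 4.21e-06), and both calls were kept without each library in turn. Mt2 went further, with 1779, 418 and 465 FPKM in fasted BKO, against 186, 159.7 and 146 FPKM in fed BKO libraries. In FF mice it had 1313, 1137 and 2023 FPKM when fasted, against 189, 168 and 271 FPKM when fed. The rise was 2.10 in BKO (SE 0.43, adjusted p = 0.000941) and 2.81 in FF mice (SE 0.43, adjusted p = 2.77e-05). BKO fasted replicate 1 stood far above the other 2 fasted BKO libraries for both genes, and without it the rise of Mt2 in BKO mice was 1.43 (adjusted p = 0.00872).

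In the cold the means of both metallothioneins stood nearer to their fed than to their fasted levels. Cold plus fasting gave 325, 477 and 558 FPKM of Mt1 in BKO and 545, 359.7 and 312 FPKM in FF libraries. Cold alone gave 326, 525, 442 and 257 FPKM in BKO and 404, 461, 397 and 264 FPKM in FF libraries. Neither gene differed past the threshold between either cold condition and feeding, and the 95% interval for Mt1 in cold plus fasting against fed was -0.53 to 0.74 in BKO and -0.73 to 0.54 in FF mice. Against fasting, cold plus fasting fell by 1.60 in BKO (SE 0.31, adjusted p = 0.000229) and fell by 2.43 in FF mice (SE 0.31, adjusted p = 1.1e-06) for Mt1. For Mt2 the values in cold plus fasting were 113, 167 and 186 FPKM in BKO and 245, 136 and 86.8 FPKM in FF libraries. Mt2 fell there by 2.20 in BKO (SE 0.43, adjusted p = 0.000304) and fell by 3.33 in FF mice (SE 0.43, adjusted p = 1.63e-06). Without BKO fasted replicate 1 the difference in BKO mice was -1.53 (adjusted p = 0.00287). The ratio of Mt1 to Mt2 in FPKM was 1.37 to 2.39 in fasted BKO and 1.32 to 1.62 in fasted FF libraries, against 2.07 to 3.12 in fed BKO and 1.67 to 2.58 in fed FF libraries. As Mt1 and Mt2 are similar in sequence, the split of reads between them is uncertain.

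Between genotypes in fasted mice, Mt1 differed by -0.66 (SE 0.31, adjusted p = 0.193) and Mt2 by -1.04 (SE 0.43, adjusted p = 0.142) on the log2 scale. Without BKO fasted replicate 1 these differences were -1.09 and -1.71, with adjusted p of 0.0187 and 0.00644. The result therefore rests on that 1 library, and genotype cannot be told apart from library number in this comparison. In fed mice, in cold and in cold plus fasting, neither gene differed between genotypes past the threshold, with Mt1 at -0.04 (95% interval -0.67 to 0.60), 0.00 (-0.55 to 0.55) and 0.17 (-0.47 to 0.80). Mt2 stood at -0.33 (-1.23 to 0.57), -0.30 (-1.08 to 0.48) and 0.09 (-0.81 to 0.99) in the same order.

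**Figure D4:**
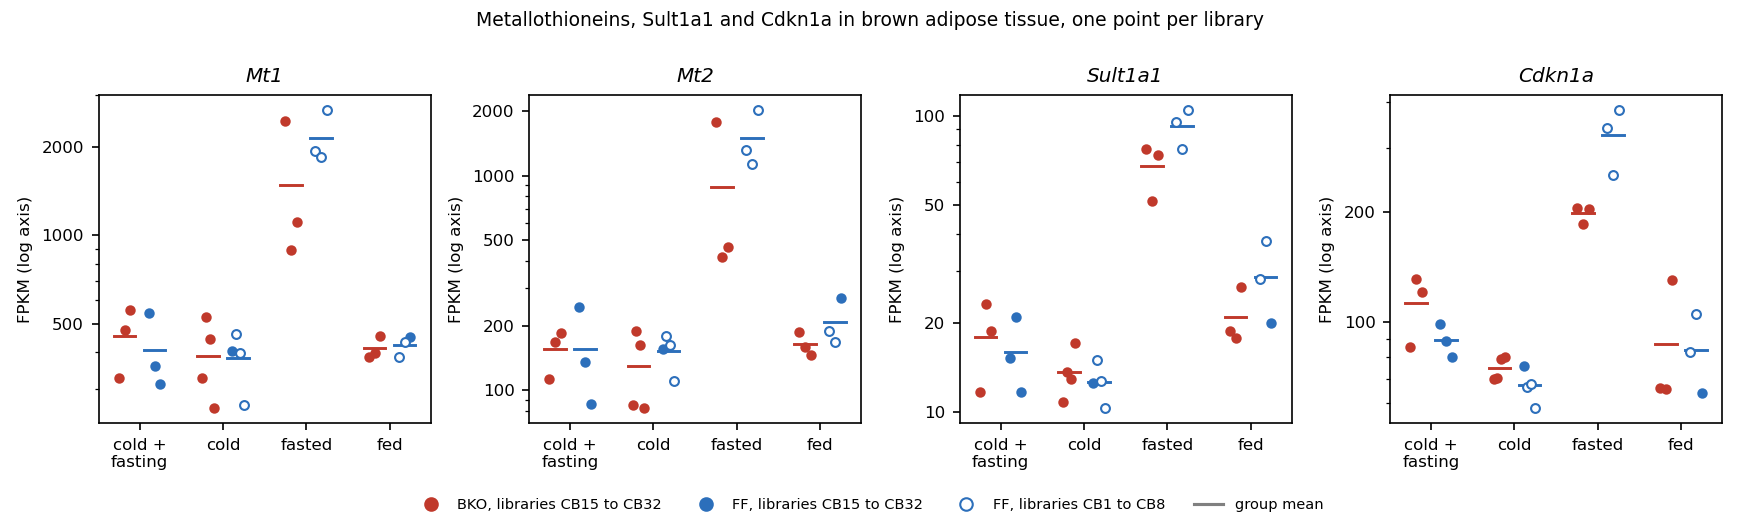
FPKM of Mt1, Mt2, Sult1a1 and Cdkn1a in every library on log axes, by condition, with BKO left of FF, group means as bars and open points for libraries CB1 to CB8. Every fasted library lies above every fed library of its genotype in all 4 genes, and the means of cold plus fasting lie closer to those of cold than to those of fasting.

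Of the 10 genes, 0 passed the threshold between genotypes in fed mice, 0 in cold plus fasting, 1 in cold (Hsd11b1) and 3 in fasted mice (Hsd11b1, Fkbp5 and Cdkn1a), all lower in BKO. Of all genes tested, 0.0394% rose and 0.181% fell in fed mice, and 0.0157% rose and 0.22% fell in cold plus fasting. In cold 0.0236% rose and 0.378% fell, and in fasted mice 4.53% rose and 4.15% fell. The fasted calls of Fkbp5 and Cdkn1a were each kept under only 2 of 6 other settings. In fasted mice genotype cannot be told apart from library number. In fed mice, where 742 of all genes had an unadjusted p under 0.05, the count was 3 without FF replicate 3, made up of Fkbp5, Zbtb16 and Sgk1. The FF libraries left there were in the lower-numbered set and the BKO libraries in the higher-numbered set. Genotype and library number therefore cannot be told apart in that count. Among CB15 to CB32 alone, with a single fed FF library, the differences were 0.19 for Fkbp5, -0.09 for Zbtb16 and -0.36 for Sgk1. Of all genes in cold plus fasting, 728 had an unadjusted p under 0.05. In cold against fed, 2 of 10 fell and 0 rose in BKO mice, where 9.71% of all genes rose and 6.49% fell, and 5 fell and 0 rose in FF mice, where 13.3% rose and 10.3% fell. All 5 calls in FF mice ended among libraries CB15 to CB32, where that comparison has 1 fed and 1 cold FF library. In the test of the difference between the cold responses 0 of 10 passed, while 0.00787% of all genes had a higher response in BKO mice and 0% a lower one, with 433 genes at an unadjusted p under 0.05. Summed erythroid markers, 5 genes, stood at 415 to 701 FPKM in cold BKO and 342 to 601 FPKM in cold FF libraries, against 174 to 471 FPKM in fed BKO and 120 to 188 FPKM in fed FF libraries. Of these 5, 4 rose in BKO and 5 in FF mice. Summed lymphocyte markers, 8 genes, stood at 10.5 to 14.4 FPKM in cold BKO and 19.3 to 43.8 FPKM in cold FF libraries, against 5.02 to 14.8 FPKM in fed BKO and 5.26 to 9.20 FPKM in fed FF libraries. Of the lymphocyte markers only Ighm, an immunoglobulin gene, passed the filter on low values, and it rose in FF mice by 2.04 (SE 0.31, adjusted p = 5.88e-05). Of 7 fibroblast and preadipocyte markers tested, 4 fell in each genotype, among them the collagen gene Col3a1, which fell by 0.94 in BKO mice and fell by 1.07 in FF mice. The part of these cells in the cold results was not tested.

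Cold plus fasting against fed gave 1 of 10 that fell in BKO mice, which was Tsc22d3 (-0.87, SE 0.30, adjusted p = 0.0452), where 10% of all genes rose and 8.93% fell. Its libraries, at 11.1, 19.3 and 19.98 FPKM, lay below every fed BKO library, but the call ended without any 1 of the 3 cold plus fasting libraries or without fed replicate 2 or 3. Without fed replicate 3 the difference was -0.49, with an adjusted p of 0.258. In FF mice 3 fell, where 11.6% of all genes rose and 8.93% fell. Tsc22d3, at 16.1, 13.1 and 10.6 FPKM, fell by 1.44 (SE 0.30, adjusted p = 0.00162). Zbtb16, at 4.43, 3.46 and 2.74 FPKM, fell by 2.02 (SE 0.65, adjusted p = 0.0306) although the groups overlapped. Sult1a1 fell by 0.80 (SE 0.25, adjusted p = 0.025), also with an overlap. All 3 calls ended among libraries CB15 to CB32. Those of Zbtb16 and Sult1a1 also ended without fed replicate 1 or 2 or without cold plus fasting replicate 1 or 3, and that of Zbtb16 without cold plus fasting replicate 2, with adjusted p up to 0.186. The Zbtb16 difference was -1.43 without fed replicate 2 and -2.96 without fed replicate 3. In the test of the difference between these responses 0 of 10 passed, while 0.00787% of all genes had a higher response in BKO mice and 0% a lower one, with 482 genes at an unadjusted p under 0.05.

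Zinc transport genes and metallothionein relatives, 12 genes of which 10 were tested, were read beside Mt1 and Mt2. In fasted against fed mice 3 rose and 1 fell of 10 in BKO, where 12.9% of all genes rose and 14.6% fell, and 5 rose and 0 fell in FF mice, where 18.1% rose and 19.4% fell. Slc30a2, a zinc transporter, had 3.29, 0.371 and 0.610 FPKM in fasted BKO and 2.23, 1.83 and 5.02 FPKM in fasted FF libraries, and at most 0.056 FPKM in any fed or cold library of either genotype. It rose by 1.06 in BKO (SE 0.27, adjusted p = 0.00545) and by 1.89 in FF mice (SE 0.27, adjusted p = 1.29e-05), on a scale that understates changes this low. The library with the highest Slc30a2 in each fasted group, BKO replicate 1 and FF replicate 3, was also the one with the highest Mt1 and Mt2. Slc30a1, which exports zinc from cells, rose by 0.51 in BKO (SE 0.17, adjusted p = 0.0265) and by 0.65 in FF mice (SE 0.17, adjusted p = 0.00437). The importer gene Slc39a8 rose by 0.48 in BKO (SE 0.12, adjusted p = 0.00501) and by 0.79 in FF mice (SE 0.12, adjusted p = 2.82e-05). Slc39a14, another importer, rose in FF mice by 0.75 (SE 0.14, adjusted p = 0.000286). Mt3 lay between 0 and 0.322 FPKM, and Mt4 was listed at 0 in all libraries. In fasted BKO against FF mice 2 of 10 fell, where 4.15% of all genes fell, namely Slc39a14 by 1.09 (SE 0.14, adjusted p = 3.47e-05) and Slc39a8 by 0.55 (SE 0.12, adjusted p = 0.00678), and both fell on average over the 4 conditions. In fasted mice genotype cannot be told apart from library number.

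Among 21 other genes known to be induced by glucocorticoids, 19 were tested. In fasted against fed mice 5 rose and 0 fell in BKO, where 12.9% of all genes rose and 14.6% fell, and 6 rose and 2 fell in FF mice, where 18.1% rose and 19.4% fell. Ddit4, an inhibitor of mTOR signalling, rose by 1.35 in BKO (SE 0.45, adjusted p = 0.0281) and by 2.12 in FF mice (SE 0.45, adjusted p = 0.000811), and the receptor tyrosine kinase gene Mertk rose by 0.63 in BKO (SE 0.14, adjusted p = 0.00198) and by 0.79 in FF mice (SE 0.14, adjusted p = 0.000162). Glul, the glutamine synthetase gene, had 1087, 846 and 732 FPKM in fasted BKO, against 2162, 1393 and 2381 FPKM in fasted FF libraries. It was the only gene of this list whose fasting response differed between genotypes, by -1.26 (SE 0.21, adjusted p = 0.00531), where 0.417% of all genes passed in that direction. In fasted BKO against FF mice 4 of 19 fell, where 4.15% of all genes fell. They were Glul (-1.14, adjusted p = 4.5e-05), Klf9 (-0.73, adjusted p = 0.0146), Fam107a (-0.57, adjusted p = 0.0222) and Nfkbia (-0.62, adjusted p = 0.0482). Genotype cannot be told apart from library number in fasted mice, and the difference of the Glul response rests on the same fasted libraries. In cold plus fasting against fasted 3 rose and 9 fell of 19 in BKO, where 22.2% of all genes fell, and 3 rose and 12 fell in FF mice, where 25.9% fell. In cold against fed 1 fell in BKO, where 6.49% of all genes fell, and 9 fell in FF mice, where 10.3% fell.

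Partners of the receptor and enzymes of steroid metabolism, 13 genes of which 10 were tested, gave 0 that rose and 3 that fell in fasted against fed BKO mice, where 12.9% of all genes rose and 14.6% fell. In FF mice 1 rose and 3 fell, where 18.1% of all genes rose and 19.4% fell, so the counts lay near those shares. The immunophilin gene Fkbp4, whose product carries the receptor to the nucleus, had 35.1, 32.6 and 35.3 FPKM in fasted BKO, against 69.1, 61.1 and 70.2 FPKM in fed BKO libraries. It fell by 0.94 in BKO (SE 0.11, adjusted p = 1.24e-06) and fell by 0.85 in FF mice (SE 0.11, adjusted p = 3e-06). The cochaperone gene Stip1 fell by 1.03 in BKO (SE 0.17, adjusted p = 9.65e-05) and fell by 1.04 in FF mice (SE 0.17, adjusted p = 5.63e-05), and the chaperone gene Hsp90aa1 fell by 0.63 in BKO (SE 0.21, adjusted p = 0.0328) and fell by 0.86 in FF mice (SE 0.21, adjusted p = 0.00339). Against fasting, Fkbp4 rose in cold plus fasting by 1.34 in BKO (SE 0.11, adjusted p = 3.85e-09) and by 1.32 in FF mice (SE 0.11, adjusted p = 3.39e-09). No gene of this list passed the threshold between genotypes in any condition. Hsd11b2, which inactivates the hormone, was at most 0.0862 FPKM in any library.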

How the data were processed

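Whole brown adipose tissue RNA of 26 libraries was sequenced. The authors deposited FPKM values per gene, made with STAR, Cufflinks and Cuffdiff on mm10, per the submitters' processing notes. Tool versions, the gene annotation and the strand setting are not given in the sources used here. FPKM hide depth, so no counting intervals are given.

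A gene was tested where 3 or more libraries reached 1 FPKM, which left 12708 of 48432 genes. Values of 0 in genes whose other values all reached 100 FPKM were set missing (33 genes, 6 of them tested). limma 3.58.1 in R 4.3.3 was fitted to log2(FPKM + 1) with 8 group means, a trended prior and Benjamini-Hochberg adjustment over all genes, at a threshold of 0.05. Fold changes on this scale understate low genes. The procedure was tested on simulated data. The series gives each group as 3 to 4 mice, and nothing more says how replicates were kept apart, so p-values measure the spread between these libraries.

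The 10 genes and the 6 lists of related genes were chosen with earlier results of these data known, and 2 of 18 comparisons, cold plus fasting against fasted, were added later. Of each list up to 4 genes with the smallest adjusted p in a comparison were named, and others are said to be chosen after their values were seen. Alternatives were other scalings, a pseudocount of 0.1, no filter, library number as a covariate, libraries CB15 to CB32 alone, libraries CB1 to CB8 alone (added later), only the groups compared and each library left out. As a covariate, library number was entered only as the set, CB1 to CB8 or CB15 to CB32. Only the fed and cold FF groups held libraries of both sets, so the effect of the set was estimated from those groups. Gene positions are from GENCODE M21 (GRCm38) and start windows from RefSeq (GRCm38.p6). No window of Zbtb16 or Nr3c1 was used.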

Additional observations from a re-analysis of the deposited data

Results flagged for a closer look

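In the cold challenge, the only condition with 4 libraries per genotype, 2 of 20 gene and group values held a library that stood apart by Dixon's criterion, in which the gap to the nearest library is set against the whole range. Chance flags about 1 in 20 such groups. Nr3c1 was low in BKO cold replicate 3, at 19.5 FPKM, beside 26.9, 27.2 and 28.2 FPKM in the other BKO cold libraries. Tsc22d3 was low in FF cold replicate 4, at 9.27 FPKM, beside 12.5, 12.1 and 12.1 FPKM in the other FF cold libraries.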

How the results depend on the processing

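No paired analysis was possible because the labels carry no replicate number shared between groups that ties libraries together. Of the alternatives to 62 differences of the 10 genes, 771 kept direction and side of the threshold, 74 lost the call, 26 gained one and 8 reversed. The reversals were, in BKO against FF fed mice among libraries CB15 to CB32, Fkbp5 (0.19) and Sgk1 (-0.36), and in the average over conditions with library number as a covariate, Zbtb16 (0.065) and Sgk1 (-0.08). In FF mice among CB15 to CB32 they were Sgk1 in cold against fed (-0.37) and, in cold plus fasting against fed, Fkbp5 (0.10) and Sgk1 (-0.71, and -0.24 with the covariate). The number of the 10 genes called in BKO against FF fasted mice (3) was 1 with no filter, with the covariate and with only the groups compared. In cold (1) it was 0 with the covariate and among CB15 to CB32. For cold against fed it was 1 in BKO mice (2) with only the groups compared, and 0 in FF mice (5) among CB15 to CB32. For cold plus fasting against fed it was 0 in BKO mice (1) with no filter, among CB15 to CB32 and with only the groups compared. In FF mice (3) it was 1 with no filter and with only the groups compared, and 0 with the covariate and among CB15 to CB32. With each library left out in turn the counts ran from 0 to 3 between genotypes in fed, 1 to 4 in fasted and 0 to 1 in cold mice, and from 1 to 4 on average. They ran from 1 to 2 in BKO and 3 to 6 in FF mice for cold against fed, and from 0 to 1 in BKO and 1 to 5 in FF mice for cold plus fasting against fed. Over all genes, the 1102 called between genotypes in fasted mice ran from 76 to 1410 under the alternatives, the 28 in fed mice from 6 to 38, the 51 in cold from 8 to 61, the 30 in cold plus fasting from 6 to 41 and the 377 on average from 59 to 452. The 2992 called in cold against fed FF mice ran from 117 to 3268, the 2604 in cold plus fasting against fed FF mice from 292 to 2819, and the 91 whose fasting response differed from 5 to 110. The cause was not tested, beyond the fewer libraries that some alternatives use. No value among CB15 to CB32 could be had for comparisons with fasted FF mice, nor with only the groups compared for the average.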

Other observations

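Over the 8 group means of log2(FPKM + 1), each gene centred on its own mean, the patterns most like that of Mt1 were those of Tmbim1, Pck2 and Pnpla7, with mean absolute differences of 0.07, 0.11 and 0.12. For Mt2 they were those of Pnpla7 (0.17), Fam134b (0.19) and Gadd45b (0.20), and for Sult1a1 those of Fbxo21 (0.09), Map3k6 (0.11) and Slc6a8 (0.13). For Hsd11b1 they were those of Pxmp2 (0.18), 1110020A21Rik (0.21) and Osbp2 (0.21). Among the 10 genes themselves, Cdkn1a and Mt1 were the closest pair, at 0.20, and Mt1 and Mt2 differed by 0.28. These are descriptions over 26 libraries.

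Of 11 other p53 targets, 2 rose and 3 fell in fasted against fed BKO mice, where 12.9% of all genes rose and 14.6% fell. In FF mice 5 rose and 2 fell, where 18.1% of all genes rose and 19.4% fell. Papss2, which makes the sulfate donor that Sult1a1 uses, rose in fasted mice by 0.85 in BKO (adjusted p = 3.55e-05) and by 1.19 in FF mice (adjusted p = 3.31e-07), and it fell in fasted BKO against FF mice by 0.59 (adjusted p = 0.00559). That fall cannot be told apart from library number.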
